A study of Mus musculus with 36 samples.

Results

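The interleukin ligand genes of the mouse were followed in pancreatic chromatin. They are the autosomal protein-coding genes of GENCODE vM21 (genome build mm10, also called GRCm38) whose symbol is Il, a number and at most 1 letter from a to f. This gave 33 genes of 20807, by symbol and position alone. The rule leaves out receptor chains and ligands with other kinds of symbol, such as Il1rn, Ebi3 and Tslp.

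The data were 24 lists of ChIP-Seq peaks from the pancreata of 12 mice, 3 of each of 4 genotypes, with H3K4me3 (K4me3) and H3K27me3 (K27me3) mapped in every mouse. Control mice are labelled Wildtype (WT), and the methods of the study describe controls as C57BL/6 mice or mice with Mist1creERT alone. The other genotypes were Mist1creERT/+ EZH2ΔSET (EZ), in which the floxed exons for the SET domain of EZH2 are removed, a genotype labelled KR, which carries Mist1creERT/+ and another Cre-dependent allele, and a genotype labelled KE, which carries that allele together with Ezh2ΔSET. All mice, controls included, received tamoxifen by oral gavage at 2 to 4 months of age and tissue was taken 22 days later. Mist1creERT acts in acinar cells, which make the digestive enzymes, whereas chromatin came from the whole organ. A change in the proportion of a cell type and a change in the mark within its cells therefore cannot be told apart.

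Interleukins are secreted proteins through which immune, epithelial and stromal cells signal to each other. They act through surface receptors that pair a few shared chains, and the genes are grouped below by receptor family. K4me3 is deposited at the start of genes that are transcribed or ready to be, and is found at nearly all CpG-rich starts. K27me3 is deposited by Polycomb repressive complex 2, whose catalytic subunit is EZH2, and marks genes held silent. In the pancreas, interleukins are best known from pancreatitis and from the stroma around neoplastic lesions, where IL-6, IL-17, IL-22 and IL-33 have been studied most.

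The deposited lists give only the position of each peak. The score is 1 for every peak and the depth of the libraries is unknown, so peak height could not be used. A gene was counted as marked when any peak of that mouse reached within 3 kb of 1 of its transcription start sites (TSSs), and the bases of this window under peaks served as the measure of extent. The lists held 21420 to 31274 K27me3 peaks of at least 5001 bases and 17400 to 26081 K4me3 peaks of at least 501 bases. As a check of the tissue label, all 14 acinar marker genes carried K4me3 in all 12 mice. The extent differed, and WT2 had the fewest covered bases at all 14, for example 2328 at Cela1 against 4131 in KR1 and 8299 to 11871 in the other 10 mice. Control mouse 2 (WT2) stood apart, with K27me3 at 22.9% of all genes against 9.03% to 16.1% in the other 11 mice, and with 11.7% of its K27me3 peaks overlapping K4me3 against 0.693% to 4.39%. On chromosome X, 8 mice had 5637 to 7367 K27me3 peaks, whereas EZ2 and all 3 KR mice had 10 to 35. The labels give no sex, and this difference coincides with the comparisons of KR with WT and of KE with KR, from which it cannot be told apart.

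Promoter sequences are shown for the genes on which the results turn. Il33 and Il17d had K4me3 in most mice and K27me3 in at least 1, Il7 had K4me3 in every mouse and no K27me3, and Il22 had K27me3 and never K4me3. Each line is the 250 bases before the gene start on the coding strand of mm10, read 5′ to 3′, with every CG dinucleotide in capitals. The last line is 300 bases from the intron of Il33 that carried K4me3 in every mouse.
Il33 promoter (chr19:29924864-29925113, plus strand): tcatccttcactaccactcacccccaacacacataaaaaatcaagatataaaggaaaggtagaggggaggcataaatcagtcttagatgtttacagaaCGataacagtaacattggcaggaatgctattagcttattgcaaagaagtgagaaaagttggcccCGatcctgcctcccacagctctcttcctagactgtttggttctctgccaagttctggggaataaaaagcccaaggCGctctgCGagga
Il17d promoter (chr14:57524527-57524776, plus strand): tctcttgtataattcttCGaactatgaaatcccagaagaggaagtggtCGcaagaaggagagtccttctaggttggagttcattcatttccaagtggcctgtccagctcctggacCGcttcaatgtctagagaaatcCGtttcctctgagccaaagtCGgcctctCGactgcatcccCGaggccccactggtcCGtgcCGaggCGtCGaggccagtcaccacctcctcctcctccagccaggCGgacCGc
Il7 promoter (chr3:7613761-7614010, minus strand): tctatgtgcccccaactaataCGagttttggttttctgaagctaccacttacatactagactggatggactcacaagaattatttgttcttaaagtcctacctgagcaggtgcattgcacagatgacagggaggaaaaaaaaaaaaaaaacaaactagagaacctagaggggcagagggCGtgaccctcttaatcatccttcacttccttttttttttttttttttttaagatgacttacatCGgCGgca
Il22 promoter (chr10:118204692-118204941, plus strand): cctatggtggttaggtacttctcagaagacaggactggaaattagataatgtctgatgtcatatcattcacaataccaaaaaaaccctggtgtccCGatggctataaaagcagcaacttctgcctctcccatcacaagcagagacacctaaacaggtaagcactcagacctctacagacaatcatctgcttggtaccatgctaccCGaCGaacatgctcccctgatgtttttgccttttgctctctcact
Il33 intron (chr19:29948409-29948708, plus strand): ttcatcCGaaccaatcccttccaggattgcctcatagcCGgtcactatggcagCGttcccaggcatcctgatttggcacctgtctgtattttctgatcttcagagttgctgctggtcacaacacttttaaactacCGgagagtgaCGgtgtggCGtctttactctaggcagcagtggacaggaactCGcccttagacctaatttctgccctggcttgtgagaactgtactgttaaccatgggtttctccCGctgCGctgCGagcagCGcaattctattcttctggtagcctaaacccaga

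All but the Il17d promoter held fewer CG than the median promoter. The Il22 promoter held 3 CG, the Il33 and Il7 promoters 4 each, and the Il17d promoter 13. The median over the 33 genes was 3, against 8 over all genes. CG was searched as these letters, which read the same on both strands, and 7.39% of all promoters of this length had none, as did 4 of the 33 (12.1%). Over the 1000 bases centred on the gene start, 1 of the 33 genes, Il17d, met the CpG-rich rule of at least 50% GC and an observed to expected CpG ratio of at least 0.6, against 45.7% of all genes. The median ratio was 0.24 for the interleukins and 0.57 for all genes.

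K4me3 was found at 6 to 9 of the 33 genes in each mouse. The numbers were 9, 6 and 9 in the WT mice, 9, 9 and 8 in EZ, 9, 9 and 8 in KR, and 7, 9 and 9 in KE. In the same mice 61.8% to 64.8% of all genes carried K4me3. Genes marked in all 3 mice of a genotype numbered 4 of 33 in WT, where 59.3% of all genes were so marked, 8 in EZ (62.2% of all genes), 7 in KR (61.3%) and 6 in KE (61.2%). Il7, Il15, Il18 and Il33 were on every list. Il11 and Il17d joined them in the EZ, KR and KE lists, Il34 in the EZ and KR lists and Il13 in the EZ list. Of these, Il11, Il17d and Il34 were missing from the WT list because of WT2 alone. Without WT2 the WT count was 8, and without KE1 the KE count was 9. All but Il17d lack a CpG-rich start, and among genes without one, 6 of 32 interleukins (18.8%) and 37% of all genes carried K4me3 in at least 9 mice. Il10, Il12a, Il12b and Il16 carried K4me3 in some mice. The other 21 interleukins (63.6%) carried none within 3 kb of a TSS in any mouse, against 31.9% of all genes.

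**Figure D1:**
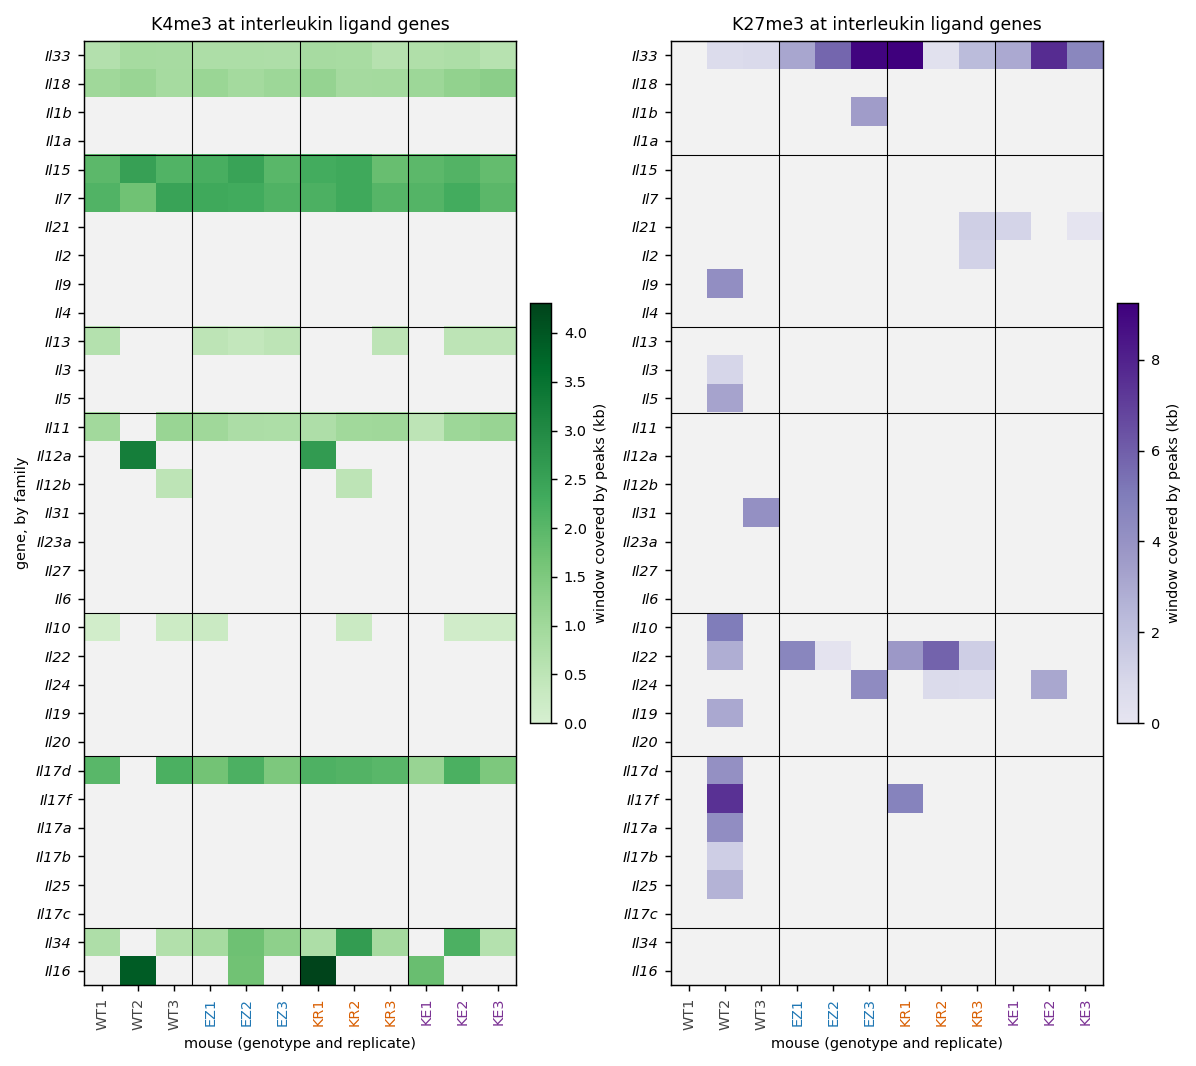
Kilobases of the window within 3 kb of a TSS that lie under K4me3 (left, green) and K27me3 (right, purple) peaks, for 33 interleukin ligand genes (rows, grouped by family with lines between) in 12 mice (columns). Grey means no peak. Il7, Il15, Il18 and Il33 are green in all 12 mice, Il33 is the only gene with purple in 11 mice, and 9 genes have purple in WT2 alone.

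K4me3 was found in at least 9 mice at 7 of the 33 genes (21.2%), against 62.2% of all genes. By family these were 2 of 6 genes of the common gamma chain family, 2 of 4 of the interleukin-1 family, and Il17d, Il11 and Il34. Il7 supports lymphocyte survival, and its peak covered its TSS in all 12 mice, with 1711, 2102 and 2466 bases (lowest, median and highest) in WT, 2117, 2314 and 2340 in EZ, 2048, 2155 and 2359 in KR and 1966, 2066 and 2289 in KE. Il15 maintains natural killer and memory T cells. It was marked over a TSS in all 12 mice, at 1820 to 2532 bases with a median of 2092. Neither gene showed groups that stood apart in any of the 4 comparisons, and their means differed by at most 270 bases, between KE and EZ at Il15 (p = 0.2, exact two-sided permutation test, whose smallest p for 3 against 3 mice is 0.1).

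Il18, an inflammasome-activated cytokine of epithelia, carried a peak of 904 to 1306 bases over its TSS in all 12 mice. The same peak also covered the start of Bco2, which lies head to head with it, so it cannot be credited to either gene. The KE mice, at 1050, 1209 and 1306 bases, overlapped the KR mice, at 925, 930 and 1165 (difference 182 bases, p = 0.2, exact permutation test).

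Il17d was the CpG-rich member and the only gene of its family with K4me3. Its window held 2000, 0 and 2193 bases in WT1, WT2 and WT3, 1664, 2158 and 1520 in EZ, 2148, 2082 and 1988 in KR and 1130, 2188 and 1511 in KE. The mouse without the mark, WT2, was also the only mouse with K27me3 there, over 4098 bases. No peak pair of the 2 marks was called at Il17d in any mouse.

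Il11, a stroma-acting relative of IL-6, was marked in 11 mice, again all but WT2, by peaks of 501 to 1118 bases that lay 360 to 624 bases from its nearest annotated TSS and covered none. Tmem190 has a start within the same window. Il34 encodes a second ligand of the macrophage receptor CSF1R. Its window held 762, 0 and 690 bases in WT, 889, 1729 and 1261 in EZ, 766, 2610 and 926 in KR and 0, 2167 and 643 in KE. Every EZ mouse and every KR mouse was above every WT mouse, and the KE mice, from 0 to 2167 bases, overlapped all 3 other genotypes. The differences were 809 bases between EZ and WT and 950 between KR and WT (each p = 0.1, exact permutation test, the smallest possible), and the comparisons share the WT mice. Without KR2 the difference between KR and WT was 362 bases. Such a separation was found at 9.09% of genes with any K4me3 for EZ above WT and at 3.86% for KR above WT. When the numbers of peaks were made equal between libraries the groups overlapped, with differences of 409 (p = 1) and 1179 bases (p = 0.4, exact permutation tests), as they did within 1 kb, at 334 and 647 bases (each p = 0.4, exact permutation test). Many Il34 peaks lay within the gene, as far as 13732 bases from the gene start, and 5 mice (EZ2, EZ3, KR1, KR2 and KE2) had a peak over its TSS.

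Il10, Il13 and Il12b were marked only by peaks at or near the smallest width in the lists. Il10, the main anti-inflammatory interleukin, had K4me3 in 6 mice, with 5 of the 6 peaks at 501 bases, all 2742 to 2897 bases from its TSS. Il13, a type 2 cytokine, had it in 7 mice, with 6 of 7 peaks at 501 bases, and in the EZ mice its window held 501, 392 and 501 bases against 639, 0 and 0 in WT (p = 0.4, exact permutation test). Il4 and Il5, its neighbours in the type 2 locus, carried no K4me3. Il12b, the subunit shared by IL-12 and IL-23, had a peak of 501 bases in WT3 and KR2.

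**Figure D2:**
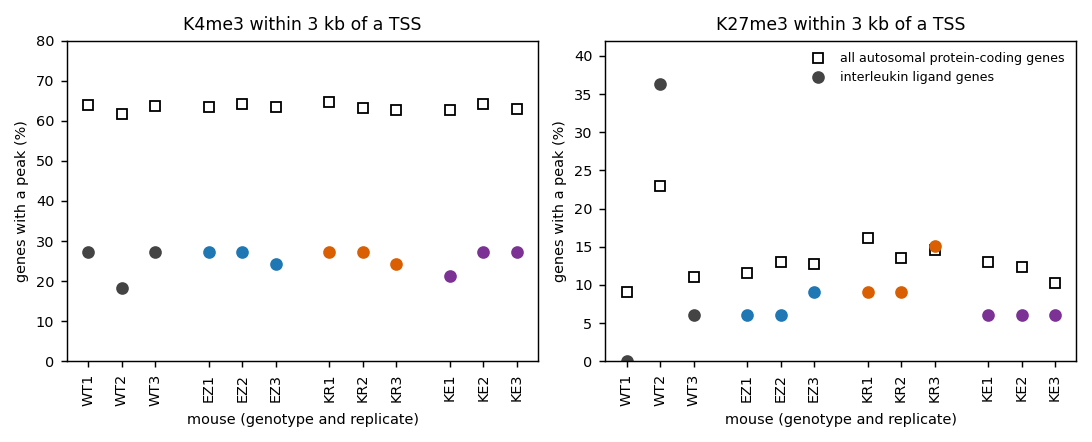
Percent of genes with a K4me3 (left) or K27me3 (right) peak within 3 kb of a TSS in each mouse, for the 33 interleukin ligand genes (dots, coloured by genotype) and all 20807 genes (open squares). For K4me3 every dot lies below its square, and for K27me3 the dots lie above the squares in WT2 and KR3 only.

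Il16 and Il12a carried K4me3 in a few mice only, and in those mice the mark also lay at leukocyte genes. Il16 is made as a precursor in lymphocytes, and its K4me3 covered 3907 bases in WT2, 1695 in EZ2, 4309 in KR1 and 1798 in KE1. Ptprc, which encodes the pan-leukocyte antigen CD45, carried K4me3 in the same 4 mice, at 4163, 501, 4143 and 3510 bases, and neither gene had it elsewhere. Across all genes, 46 (0.221%) had K4me3 in exactly these 4 mice. The Il16 peaks lay from 89093 to 97172 bases inside the gene, near the starts of its short transcripts. Il12a, a subunit of IL-12 and IL-35, had K4me3 over 3232 bases in WT2 and 2647 in KR1, and 152 genes (0.731%) shared this pattern.

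Of 11 T and B lymphocyte markers, 9 carried K4me3 in WT2, 11 in KR1 and 4 in KE1, against 1 (Lck) in each of the other 9 mice. Cd2 had 4154, 4094 and 1109 bases in WT2, KR1 and KE1, and Cd3e had 2699 and 2857 in WT2 and KR1. Of 10 myeloid markers, 4, 4 and 3 were marked in those 3 mice and 2 or 3 in the others, and Adgre1, Csf1r, Itgam, Itgax, Lyz2 and Mrc1 were at 0 in all 12. Cd14 and Cd68 carried K4me3 in all 12 mice, and Spi1, a myeloid and B cell transcription factor, in WT2 (2624 bases) and KR1 (1607) only. The 4 mice with Il16 marked came 1 from each genotype, and the 2 with Il12a marked were a WT and a KR mouse. The part of lymphocytes in these marks was not tested.

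**Figure D3:**
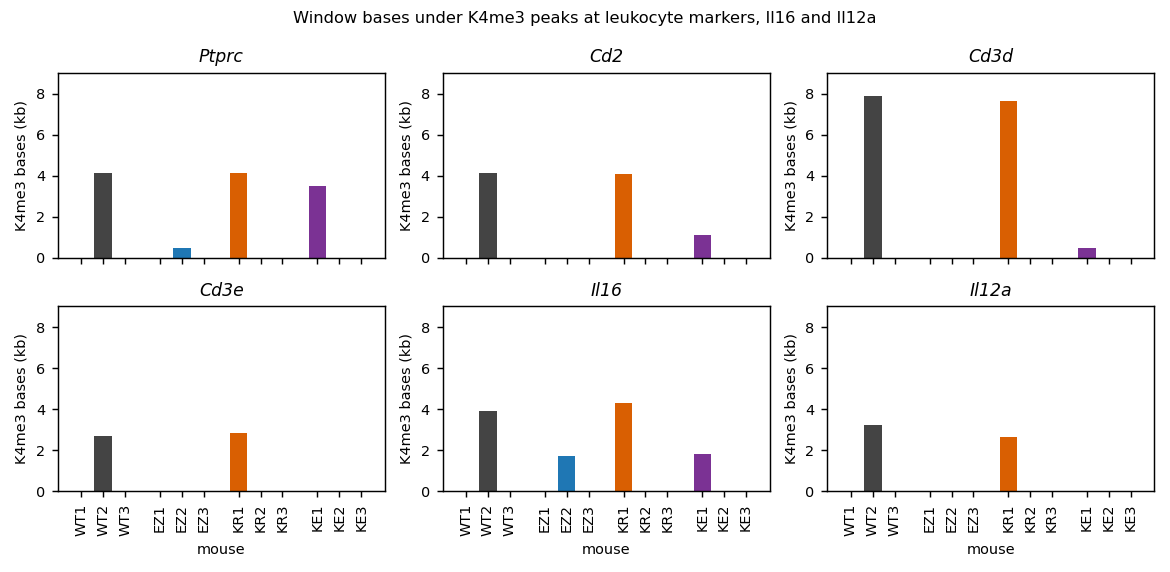
Kilobases of the window within 3 kb of a TSS under K4me3 peaks at Ptprc, Cd2, Cd3d and Cd3e, which mark leukocytes, and at Il16 and Il12a, in each of 12 mice (bars coloured by genotype). Il16 has bars in the same 4 mice as Ptprc, and Il12a in the same 2 mice as Cd3e.

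K27me3 was found at 0, 12 and 2 of the 33 genes in the WT mice, 2, 2 and 3 in EZ, 3, 3 and 5 in KR and 2 in each KE mouse. The means were 4.67 ± 6.43 (SD, n = 3 mice) in WT, 2.33 ± 0.577 in EZ, 3.67 ± 1.15 in KR and 2 ± 0 in KE. The WT mice lay both below and above all others, and the difference in means between EZ and WT, 2.33 genes, was smaller than the SD in WT. Without WT2 the EZ mean was 1.33 genes above WT and the KR mean 2.67 above, the reverse of the direction with it.

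Genes with K27me3 in all 3 mice of a genotype numbered 0 in WT, where 4.36% of all genes were so marked, 1 in EZ (7.78%), 2 in KR (8.78%) and 1 in KE (7.36%). They were Il33 in EZ, KR and KE, and Il22 in KR. Within 1 kb of a TSS, or with a peak over the TSS, the count was 0 in all 4 genotypes. In KR it was 1 when at least 500 bases or the gene start alone was required (Il33 lost) and with equal numbers of peaks (Il22 lost). Over all 12 mice, 17 of the 33 genes (51.5%) had K27me3 at least once, against 33.3% of all genes, and 9 of the 33 (27.3%) had it only in WT2, against 8.53% of all genes. In the other 11 mice the count was 8 of 33 (24.2%), against 24.7% of all genes. The 9 were Il3, Il5, Il9, Il10, Il17a, Il17b, Il17d, Il19 and Il25. WT2 was also the only mouse with K27me3 at acinar markers, 5 of 14. Neither mark was found in any mouse at 7 of the 33 genes (21.2%), compared with 15.4% of all genes.

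Il33 was the only interleukin that carried both marks in any mouse, 1 of 33 (3.03%) against 15.1% of all genes. It carried both in 11 of 12 mice, and 1.87% of all genes had both in at least 9 mice. Both marks were counted over the windows of all its TSSs together, and they mostly lay at different places. Only in KR1 did a K27me3 peak, 21.42 to 26.42 kb inside the gene, overlap the K4me3 peak. IL-33 is a nuclear alarmin of epithelial, endothelial and stromal cells, released on damage and read by the receptor ST2. Its gene lies on chromosome 19 (chr19:29925114-29960718, plus strand), with 5 annotated TSSs at 0, 1, 18, 20676 and 26702 bases from the gene start. K4me3 covered 660, 907 and 874 bases of the window in WT, 781, 767 and 744 in EZ, 883, 864 and 621 in KR and 740, 774 and 603 in KE. All 4 genotypes overlapped, and no comparison had an exact permutation p below 0.4.

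The K4me3 at Il33 came from 1 peak per mouse, and its place was the same in every mouse. The stretch common to all 12 was chr19:29948281-29948835, 555 bases that begin 23.2 kb inside the gene. It lies in an intron, overlaps no annotated exon and ends 825 bases before the next. The nearest TSS was 2294 to 2491 bases away, so no peak covered a TSS of Il33. The 300 bases printed above as the Il33 intron come from its centre. The stretch held 17 CG, with 52.6% GC and a CpG ratio of 0.46, compared with 43.9% and 0.27 around the gene start.

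K27me3 around Il33 covered more bases on average in EZ, KR and KE than in WT. Within 3 kb of its TSSs it covered 0, 673 and 804 bases in the WT mice, 3129, 5758 and 9078 in EZ, 9257, 318 and 2248 in KR and 3009, 7639 and 4517 in KE. The EZ and KE mice all lay above the WT mice, whereas 1 KR mouse lay among them. KE against WT was not among the comparisons at this window, so no share of genes is given for it. The EZ mean was 5988 ± 2981 bases (SD, n = 3) against 492 ± 431 in WT (p = 0.1, exact permutation test), a separation found in this direction at 2.34% of the genes with any K27me3. With a window of 1 kb the difference was 1448 bases and the groups overlapped (p = 0.4, exact permutation test), whereas with equal numbers of peaks it was 5764 bases and they stayed apart (p = 0.1, exact permutation test). In the stratified test, which compares mice with and without Ezh2ΔSET between EZ and WT and between KE and KR, the means were 5522 and 2217 bases (difference 3305, exact permutation p = 0.095, adjusted p = 1 over 6923 genes). With equal numbers of the widest peaks the difference was 4035 bases (unadjusted exact permutation p = 0.005), and 1.75% of genes passed 0.05 there. Il33 also passed without KR1, and without WT2, KR1 and KE1 together. It did not pass within 1 kb or with a replicate block.

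The window is narrow beside the domain itself, so K27me3 was also measured within 50 kb of the gene start, a range chosen after the data had been seen. It covered 0, 21.4 and 25.7 kb in WT, 50.7, 39.6 and 60.8 kb in EZ, 51.8, 55.3 and 43.8 kb in KR and 45.8, 59.7 and 40 kb in KE. Every mouse of the other genotypes was above every WT mouse, and these genotypes overlapped each other. The difference from WT was 34.7 kb in EZ, 34.6 kb in KR and 32.8 kb in KE (each p = 0.1, exact permutation test, the smallest possible). The 3 comparisons share the WT mice. The same separation was found at 4.92%, 5.34% and 3.29% of the 13117 genes with any K27me3 in this range. The mean over all genes was 4.86 to 10.4 kb, with WT mice at both ends of it. In the planned range from 100 kb upstream to 3 kb downstream, KE overlapped WT at Il33 (43.4 ± 18.9 against 19.1 ± 16.6 kb, SD, n = 3). EZ (52.8 ± 14.3 kb) and KR (51 ± 2.28 kb) stayed above WT there.

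Within the gene body of Il33, K27me3 covered 1.67 kb ± 2.89 in WT (SD, n = 3), 13.3 ± 6.57 in EZ, 16.3 ± 5.03 in KR and 16.7 ± 2.58 in KE. Upstream, peaks overlapped the stretch from 20 to 10 kb before the gene start in 11 mice, 2 of them WT. Inside the gene, they overlapped the stretch from 2.5 to 7 kb in 9 mice, 1 of them WT. No share of all genes was counted for these stretches. WT1 had no K27me3 peak within 100 kb. Within 50 kb and in the gene body, WT2 and WT3 alone were also below the other 9 mice. From 100 kb upstream to 3 kb downstream, KE1, at 23234 bases, lay below WT2 (30689) and WT3 (26527). The share of all genes with K27me3 was 9.03%, 22.9% and 11% in the WT mice. It was 11.6% to 13% in EZ, 13.5% to 16.1% in KR and 10.3% to 13% in KE. The total autosomal length under K27me3 peaks was 149 to 176 Mb in WT, 182 to 226 in EZ, 178 to 224 in KR and 136 to 187 in KE. Called peaks thus covered more autosomal length in EZ and KR mice, but not KE mice, than in WT. With depth and peak height unknown, this does not measure the amount of K27me3. The part of the total length under peaks in the Il33 difference was not tested.

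**Figure D4:**
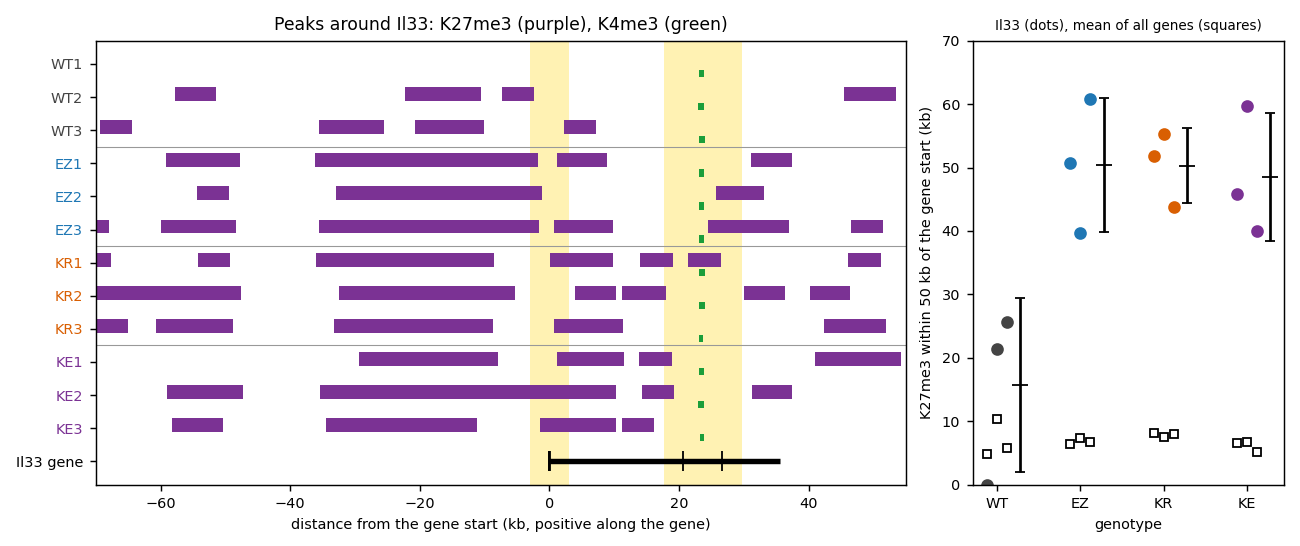
Left, K27me3 (purple) and K4me3 (green) peaks of 12 mice by distance in kb from the gene start of Il33, with the gene and its TSSs (ticks) at the bottom and the 3 kb windows shaded. Right, kb under K27me3 within 50 kb of the gene start for Il33 (dots, 3 mice per genotype, bars are mean ± SD) and on average over all genes (squares). The green peak inside the gene sits at the same place in all 12 mice, and the WT dots, at 0 to 25.7 kb, lie below all others, at 39.6 to 60.8 kb.

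Il22 was the only interleukin marked in all 3 mice of a genotype and in none of another. IL-22 is made by lymphocytes and acts on epithelial cells, acinar cells included. The gene lies on chromosome 10 (chr10:118204942-118210047, plus strand). K27me3 covered 0, 2807 and 0 bases in WT, 4558, 112 and 0 in EZ, 3699, 5864 and 1385 in KR and 0 in each KE mouse. The KR mice were all marked and the KE mice were not, a difference of 3649 bases (KR mean 3649 ± 2240, SD, n = 3, exact permutation p = 0.1), which was found in this direction at 0.968% of the genes with any K27me3. The WT and EZ mice overlapped both. Il22 carried no K4me3 in any mouse.

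The peaks at Il22 were few and shifted from mouse to mouse. Each of 6 mice had 1 peak in the window, of 5001 to 10547 bases, and only in EZ1, KR1 and KR2 did it cover the TSS printed above. EZ3 and KE3 had peaks that ended 5.6 and 4.7 kb before the gene start, just outside the window. Within 50 kb the KE mice had 7.16, 0 and 12.9 kb and the KR mice 13.2, 6.27 and 5 kb, and the groups overlapped (p = 0.9, exact permutation test). They also overlapped when numbers of peaks were made equal between libraries. Iltifb, a close copy of the gene, starts 90.1 kb away, and 88.9% of the Il22 window aligns to its surroundings at 90% identity or more, so reads of the copies may have been exchanged and the Il22 values are uncertain. Iltifb itself carried K27me3 in EZ1 only. All 3 KR mice also lacked the chromosome X peaks that all 3 KE mice had, and the part of this difference was not tested.

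**Figure D5:**
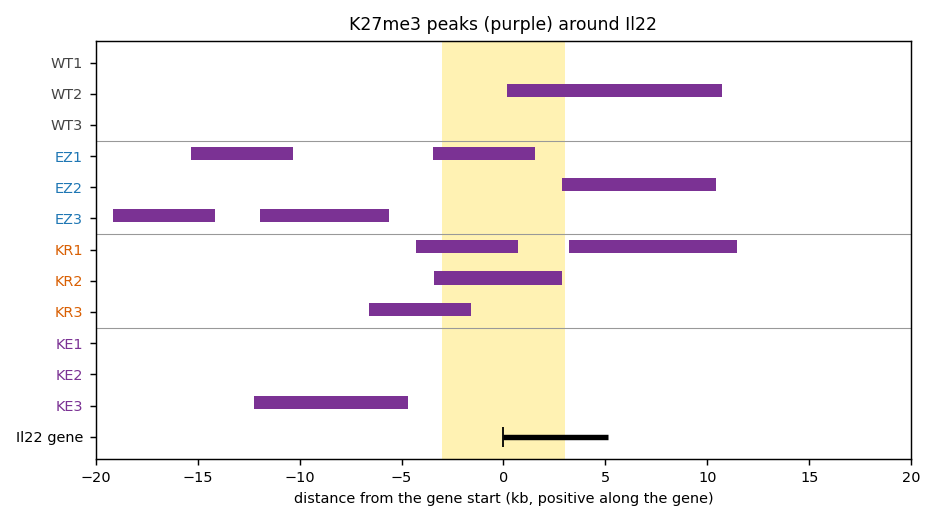
K27me3 peaks (purple) of 12 mice by distance in kb from the gene start of Il22, with the gene and its TSS at the bottom and the 3 kb window shaded. The 3 KR mice each have a peak that reaches into the shaded window, and of the KE mice only KE3 has a peak in view, which ends before it.

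K27me3 within 20 kb of the gene start was found in at least 10 mice at 4 of the 33 genes (12.1%), Il1b, Il3, Il21 and Il33, against 13.7% of all genes, so this recurrence was near the background. The stretches given here and for Il2 and Il1b were chosen after the peaks were seen, and no share of all genes was counted for them. Il21, made by follicular helper T cells, had K27me3 inside the window in KR3, KE1 and KE3 only, but peaks overlapped the stretch 12 to 4.5 kb before its start, in whole or in part, in 11 mice, all but WT1. The near edge of these upstream peaks lay 1.91 to 4.54 kb from the gene start. Within 50 kb of Il21 the KR mice had 20.1, 17.3 and 22.2 kb, the KE mice 10.3, 6.25 and 9.05, the EZ mice 15, 13.8 and 6.25 and the WT mice 0, 12.5 and 8.04. The KR mice were above all KE and all WT mice (each p = 0.1, exact permutation test), as were 7.76% of genes against KE and 5.34% against WT.

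Il2, the T cell growth factor next to Il21, had K27me3 peaks that overlapped the stretch 27 to 34 kb beyond its start, some of them only in part, in 11 mice. Within 50 kb of it the EZ mice, at 9.11, 6.99 and 5 kb, lay below the WT mice, at 18.3, 13.9 and 17.6 kb, a direction found at 0.381% of genes. In the stratified test the difference, mice with Ezh2ΔSET minus those without, was -8.03 kb (exact permutation p = 0.03, adjusted p = 1), and KE overlapped KR at 13.6, 5 and 18.7 against 11.6, 19.9 and 25.2 kb. Il1b, a main product of the inflammasome, had K27me3 peaks that overlapped the stretch 13 to 19 kb beyond its start in 10 mice. Il3 had a peak within 20 kb in 11 mice, and 9.09% of interleukins and 11% of all genes had one in at least 11. Each of these genes had K27me3 within 3 kb of a TSS in at most 1 mouse.

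Il7 was the reverse case, with K4me3 in all 12 mice and no K27me3 within 3 kb. Within 50 kb, K27me3 was found in EZ3 and in all 3 KE mice, at 5, 6.36, 5 and 5 kb, and in no WT or KR mouse. The 3 KE mice were thus above all KR mice, which 0.892% of genes also showed, and the stratified difference was 3.56 kb (exact permutation p = 0.05, adjusted p = 1). Il7 and Il2 were the 2 of 26 interleukins at or under an unadjusted p of 0.05 for Ezh2ΔSET at this range, 1 higher and 1 lower, where 1.69% of genes were higher and 1.49% lower. Peaks of 5 kb have the smallest width in the lists.

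Neighbouring interleukins did not share a K27me3 or K4me3 peak within 3 kb of their TSSs. There were 5 clusters, with gene starts within 200 kb of each other: Il17a with Il17f, Il24 with Il20, Il19 and Il10, Il1a with Il1b, Il2 with Il21, and Il4 with Il13 and Il5. No single peak of either mark reached the windows of more than 1 gene of a cluster. K27me3 peaks of the median width, 6277 to 7588 bases by mouse, were too short to do so. In the interleukin-10 cluster, Il24, a relative of Il10, had K27me3 in EZ3 (4293 bases), KR2 (714), KR3 (659) and KE2 (3089). Il19 and Il10 had it in WT2 alone and Il20 in no mouse. Within 50 kb, Il24 and Il20 both held 10.3 kb in EZ3, 17.4 in KR2, 10 in KR3 and 5 in KE2, but differed in WT2 (5 and 13).

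Tested gene by gene for Ezh2ΔSET over all 12 mice, no interleukin passed an unadjusted p of 0.05 at the 3 kb window. The test is an exact two-sided permutation test over 400 arrangements, whose smallest p is 0.005, and it was run on all genes with any covered base. For K27me3, 0 of 17 interleukins passed for Ezh2ΔSET, where 1.94% of 6923 genes did. For K4me3, 0 of 12 passed for Ezh2ΔSET, where 7.55% of 14175 genes did. No gene of any kind had an adjusted p of 0.05 or less in these 2 tests. With 0.005 as the smallest p, that would need a large share of all tested genes at this value. The design thus left little room for another outcome, and no conclusion is drawn from it.

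In the pairwise comparisons, groups of 3 mice stood apart at few interleukins. KE was compared with WT only for K27me3 within 50 kb. For K27me3 within 3 kb this was Il33, higher in EZ than WT (0 were lower, where 0.303% of genes were), and Il22, lower in KE than KR (3.02% of genes). It was 0 of 17 for KR above (2.57%) or below WT (0.101%), for KE above KR (0.924%) and for KE above (1.65%) or below EZ (1.42%). For K4me3 it was Il34 alone, described above. It was 0 of 12 for EZ (2.12%) or KR (3.07%) below WT, for KE above (5.92%) or below KR (2.26%) and for KE above (1.95%) or below EZ (6.07%). Within 50 kb, K27me3 stood apart at Il33, Il21, Il2 and Il7 as given above. It did so at 0 of 26 for KR below WT (0.183%), for KE below WT (0.663%) and for KE above (1.4%) or below EZ (2.87%).

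K27me3 in 3 of 3 mice of a genotype against 0 of 3 of the genotype compared with it was found at Il22 alone. The other directions, each at 0 of 17 interleukins, held 0.607% of genes for EZ and 0.737% for KR marked against WT, 0.0144% for WT marked against either, 0.303% for KE against KR, 0.274% for KE against EZ and 0.361% for EZ against KE. For K4me3 no interleukin was marked in 3 of 3 mice of a genotype and 0 of 3 of another. The background was 0.106% and 0.0564% of genes for EZ against WT in the 2 directions, 0.113% and 0.0282% for KR against WT, 0.0917% and 0.0776% for KE against KR and 0.0212% and 0.0353% for KE against EZ.

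Of 40 interleukin receptor chains, 21 (52.5%) carried K4me3 in all 3 WT mice, against 59.3% of all genes, 20 in EZ, 21 in KR and 21 in KE, among them Il1rap, the co-receptor for IL-1 and IL-33, Il22ra1 and Il10rb, which together form the IL-22 receptor, and Il17ra. Il1rl1, which encodes the IL-33 receptor ST2, carried no K4me3 in any mouse and K27me3 in 8 mice. The mice without K27me3 there were replicate 2 of each genotype (WT2, EZ2, KR2 and KE2). K27me3 lay in all 3 mice of every genotype at Il5ra, and in all 3 EZ, KR and KE mice at Il12rb2 and Il18rap. These 3 genes were 7.5% of the receptor chains, against 7.78%, 8.78% and 7.36% of all genes in EZ, KR and KE. Il12rb2 and Il18rap also carried K27me3 in WT1 and WT3, so WT2 alone lacked it. The number of receptor chains with K4me3 was 29, 29 and 24 in WT2, KR1 and KE1, and 20 to 22 in the others.

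Of 13 ligand relatives with other symbols, 5 (38.5%) carried K4me3 in all 3 WT mice and 6 (46.2%) in each other genotype, where the share of all genes was 59.3% to 62.2%, among them Csf1, Lif and Tslp, and none carried K27me3 in all 3 mice of a genotype. Of 17 genes for interleukin-1 and interleukin-18 processing and signalling, 13 (76.5%) carried K4me3 in all 3 mice of every genotype. Aim2 alone (5.88%) carried K27me3 in all 3 EZ, KR and KE mice, against 7.36% to 8.78% of all genes. It also carried K27me3 in WT2 and WT3, so WT1 alone lacked it. The 37 chemokine ligand genes, which are also secreted immune signals, had K4me3 at 6 or 7 genes in each mouse and K27me3 at 3, 12 and 6 in WT, 9, 7 and 12 in EZ, 12, 11 and 9 in KR and 12, 11 and 10 in KE. In all 3 mice, K27me3 was found at 1 chemokine gene in WT, 5 in EZ, 7 in KR and 7 in KE (2.7%, 13.5%, 18.9% and 18.9% of 37), compared with 0, 1, 2 and 1 interleukins and with 4.36%, 7.78%, 8.78% and 7.36% of all genes. These counts are given side by side, and the difference between the families was not tested.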

How the data were processed

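ChIP-Seq for K4me3 and K27me3 was performed by the authors on whole pancreas of 12 mice. Reads were aligned to mm10 with Bowtie2 and peaks were called in each mouse against its input with HOMER, per the labels and the methods of the study; FastQC is also named and versions are not given in the sources used here. The deposited score column holds 1 for every peak, and the deposited positions (start and end of each peak, another kind of value) were the data used. Depth is unknown, and the 12 input samples were not analysed here. Peaks that overlap within a library were merged, and the bases of the merged windows within 3 kb of all TSSs of GENCODE vM21 under peaks were counted. CpG values and sequences were read from the GRCm38 assembly with samtools 1.23.1, and the Il22 copy was aligned with blastn 2.17.0.

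Groups were the genotypes in the labels, 3 mice each. Exact permutation tests (two-sided) of covered bases were run pairwise (smallest p 0.1) and stratified over 400 arrangements (smallest p 0.005), with Benjamini-Hochberg adjustment over all autosomal genes with any covered base. The code was tested on simulated peaks. Named were genes with a mark in all 3 mice of a genotype, genes at 3 of 3 against 0 of 3, genes past p of 0.05 and their cluster neighbours. Il1b, Il2, Il3, Il9, Il10, Il12a, Il12b, Il16, Il19, Il20, Il21, Il24 and the interleukin-17 genes other than Il17d were named after their values were seen, as were the families and the markers Cd3e, Cela1 and Spi1. The members and lists were chosen with earlier results of these data known. Alternatives were a 1 kb window, a peak over the TSS, at least 500 bases, the gene start only, 100 kb upstream, equal numbers of the widest peaks, presence in at least 2 of 3 mice, a replicate block and each mouse left out. Those within 20 and 50 kb, and without the 3 mice with K4me3 at Cd2, were added after seeing the data. The stratified test of the other allele, 1 marker gene and 1 promoter are not reported here. Analyses used Python 3.11.15, numpy 2.4.6 and scipy 1.17.1.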

Additional observations from a re-analysis of the deposited data

How the results depend on the processing

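Directions are first genotype minus second. Counts of K27me3 genes in all 3 mice moved with the distance allowed. They were 0 in EZ, KR and KE within 1 kb or with a peak over the TSS, 1 in KR with at least 500 bases, the gene start only or equal numbers of peaks, 4, 8, 11 and 8 (WT, EZ, KR and KE) up to 100 kb upstream, where 17.5%, 25.8%, 29.5% and 24.9% of all genes were so marked against 12.1%, 24.2%, 33.3% and 24.2% of interleukins, 5, 6 and 4 (EZ, KR and KE) within 20 kb, 15.2%, 18.2% and 12.1% against 15.9%, 18.2% and 15% of all genes, and 1, 2 and 2 (WT, EZ and KE) in at least 2 of 3 mice. K27me3 genes per mouse, -1.67 for KE-KR, became -0.667 within 1 kb and at the gene start only, 0 over the TSS and with equal numbers, and -3 up to 100 kb upstream, where KE-EZ reversed from -0.333 to 0.667. For K4me3 in all 3 mice, EZ gave 5 within 1 kb and at the gene start only and 4 over the TSS, KR gave 4 at the gene start only and over the TSS, equal numbers gave 3, 4 and 3 (EZ, KR and KE), and WT gave 8 in at least 2 of 3 mice. K4me3 genes per mouse with equal numbers reversed for EZ-WT (-1) and KE-EZ (0.667). The cause of these changes was not tested.

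Without the 3 mice with K4me3 at Cd2 (WT2, KR1 and KE1), K27me3 genes per mouse reversed to 1.33 for EZ-WT and 3 for KR-WT, K4me3 genes per mouse reversed to -0.333 for EZ-WT, -0.5 for KR-WT, 0.5 for KE-KR and 0.333 for KE-EZ, and WT had 8 genes with K4me3 in all its mice. The stratified K27me3 test for Ezh2ΔSET, at 0 interleukins, gave 1 without these mice (Il33, 5191 bases, where 3.93% of genes passed) and 1 with equal numbers of peaks (Il33, 4035 bases, exact unadjusted permutation p = 0.005, the smallest possible, where 1.75% of genes passed), and 2 within 50 kb, where the Il22 difference reversed to 3146 bases.

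With each mouse left out in turn, K27me3 genes per mouse ranged from -4.67 to 1.33 for EZ-WT and from -3.33 to 2.67 for KR-WT, the upper ends without WT2, from -2 to -1 for KE-KR and from -0.5 to 0 for KE-EZ. K4me3 genes per mouse ranged from -0.333 to 1.17 for EZ-WT and for KR-WT, negative without WT2, and from -0.667 to 0.333 for KE-KR and for KE-EZ, positive without KE1. K27me3 genes in all remaining mice numbered 0 to 1 in WT, 1 to 2 in EZ, 2 to 3 in KR and 1 to 2 in KE, and K4me3 genes 4 to 8, 8, 7 and 6 to 9. The stratified K27me3 count was 0 to 1 (Il33 without KR1, Il22 without EZ1), where 1.7% to 3.86% of genes passed, and the K4me3 count 0, where 4.85% to 11.1% did. The Il33 difference for Ezh2ΔSET was 2399 to 4634 bases. The labels do not tie replicate numbers to a shared litter or day. The correlation of deviations between equal numbers was above 0.1 in 3 of 12 pairs for K27me3 and in 6 of 12 for K4me3. Among these were all 3 K4me3 pairs of KE with KR (0.55, 0.33 and 0.32). The lowest K4me3 values were -0.71 and -0.70, for KR with WT at replicates 1 and 2. Equal numbers gave the highest correlation in 6 of 12 pairs for K27me3 and 5 of 12 for K4me3. Whether any mice were paired cannot be told from these values. With a replicate block, 0 interleukins passed in the stratified test of either mark, where 0.607% of genes passed for K27me3 and 5.5% for K4me3.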
